A study of Mus musculus with 4 samples.

Results

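Contacts were examined at 9 genes that act in the growth of vessels into the forming corpus luteum and in the cellular response to low oxygen: Vegfa, Vegfc, Hif1a, Epas1, Edn1, Edn2, Ednra, Angpt1 and Angpt2. A called chromatin loop was counted at a gene when 1 of its anchors lay within 10 kb of the gene body, or when it spanned less than 500 kb and enclosed the gene. In the 4 deposited loop lists, 69 of 30437 loops met this rule. They form 24 of 12920 distinct loops and lie at 7 of the 9 genes, where 68.0% of 21627 protein-coding genes had a loop by the same rule. The rule itself uses no contact value.

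The loops come from Micro-C, in which micrococcal nuclease fragments crosslinked chromatin and neighbouring ends are joined and sequenced, so that each sequenced pair reports 1 contact. Granulosa cells, the somatic cells that surround the oocyte, were collected from punctured ovaries of 21-day-old mice. In the hCG group (2 libraries, hCG 1 and hCG 2), mice were given 5 IU of eCG (equine chorionic gonadotropin, also named PMSG) and then 5 IU of human chorionic gonadotropin (hCG), and were killed 6 h after the second hormone. In the PMSG group (2 libraries, PMSG 1 and PMSG 2), mice were given 5 IU of eCG alone and are labelled as 0 h of hCG. The eCG interval is 46 h in the sample characteristics and 44 h in the treatment protocol. No strain or genetic change is given for either group, the labels name no sort of the cells, and hCG stands in for the luteinizing hormone surge.

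The granulosa layer of a follicle has no vessels of its own, and after the surge it is invaded by capillaries from the surrounding theca. Vegfa codes the main growth signal for vessel endothelium and Vegfc its relative that acts mainly on lymphatic vessels. Hif1a and Epas1 code the oxygen-regulated alpha subunits of the hypoxia-inducible factors, which bind DNA at a short core, ACGTG or GCGTG, and switch on genes such as Vegfa. Edn1 and Edn2 code endothelins, peptides that constrict vessels and smooth muscle, and Ednra codes a receptor for them. Angpt1 and Angpt2 code angiopoietins, ligands of the endothelial receptor TEK that steady or loosen vessels. The files hold contacts and no RNA, so none of these genes' expression was measured.

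Promoter sequences are shown for 4 genes, as the 250 bases before the start site on GRCm38.p6 (the assembly of mm10) from RefSeq, read 5′ to 3′ on the gene's strand. They were chosen for where the start site after the printed window lay. Those of Vegfa and Hif1a lay inside a loop anchor in all 4 libraries. That of Ednra did so only in the 2 hCG libraries, and Edn2 had no loop. Capitals mark the hypoxia core, ACGTG or GCGTG, on either strand (read as CACGT or CACGC on the other).
Vegfa, minus strand, chr17:46032378-46032627: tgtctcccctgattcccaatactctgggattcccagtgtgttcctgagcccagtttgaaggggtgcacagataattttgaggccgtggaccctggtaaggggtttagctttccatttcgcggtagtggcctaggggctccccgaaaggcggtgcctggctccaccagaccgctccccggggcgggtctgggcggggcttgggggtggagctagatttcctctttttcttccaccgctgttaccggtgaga
Hif1a, plus strand, chr12:73907617-73907866: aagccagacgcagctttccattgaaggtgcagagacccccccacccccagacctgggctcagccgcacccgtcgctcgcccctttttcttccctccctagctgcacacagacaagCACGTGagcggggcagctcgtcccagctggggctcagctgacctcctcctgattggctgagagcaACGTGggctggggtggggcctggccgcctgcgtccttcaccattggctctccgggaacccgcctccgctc
Ednra, minus strand, chr8:77724453-77724702: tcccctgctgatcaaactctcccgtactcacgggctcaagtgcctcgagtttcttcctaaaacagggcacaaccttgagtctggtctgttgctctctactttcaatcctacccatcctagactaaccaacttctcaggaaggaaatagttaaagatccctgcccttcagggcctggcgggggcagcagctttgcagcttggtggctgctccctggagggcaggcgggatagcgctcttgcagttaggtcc
Edn2, plus strand, chr4:120160956-120161205: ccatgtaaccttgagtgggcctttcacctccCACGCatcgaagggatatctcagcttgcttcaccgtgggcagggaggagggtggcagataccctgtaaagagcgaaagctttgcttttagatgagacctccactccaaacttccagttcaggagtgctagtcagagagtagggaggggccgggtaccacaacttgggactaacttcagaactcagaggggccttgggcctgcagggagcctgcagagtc
Hif1a held 3 matches in 2 stretches, since its CACGTG stretch reads as a core on both strands. Edn2 held 1 match, and the printed windows of Vegfa and Ednra held none. RefSeq also lists a second Vegfa start, inside the gene, whose window (chr17:46025164-46025413, not printed) held 2 matches. That second start lay inside an anchor in hCG 1 and PMSG 2, and 4.84 kb from one in hCG 2 and PMSG 1. The Hif1a start, at chr12:73907867, also lies inside the gene body. Among 17273 promoters of the same length, 44.3% held at least 1 core, so these matches are common and describe letters only. RefSeq promoter entries were matched for 6 of the 9 genes, not for Epas1, Angpt1 or Angpt2.

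Over all 9 genes, the number of called loops was close in both groups. The lists held 17 such loops in hCG 1 and 19 in hCG 2, against 19 in PMSG 1 and 14 in PMSG 2. The whole lists differ in length (7664 and 7935 loops in hCG, 8305 and 6533 in PMSG), and per 1000 called loops the counts came to 2.31 ± 0.125 in hCG and 2.22 ± 0.102 in PMSG (SD, n = 2 each). The difference of 0.0909 is smaller than either SD, with an exact two-sided permutation p of 0.667, where 2 libraries against 2 cannot go below 0.333. Loops with an anchor at the gene numbered 10 and 13 in the hCG libraries, against 11 and 8 in the PMSG libraries, and enclosing loops 7 and 6, against 8 and 6. The groups overlap in both kinds. Whether different mice stand behind the libraries of a group is not labelled, and part of the spread could be technical.

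**Figure D1:**
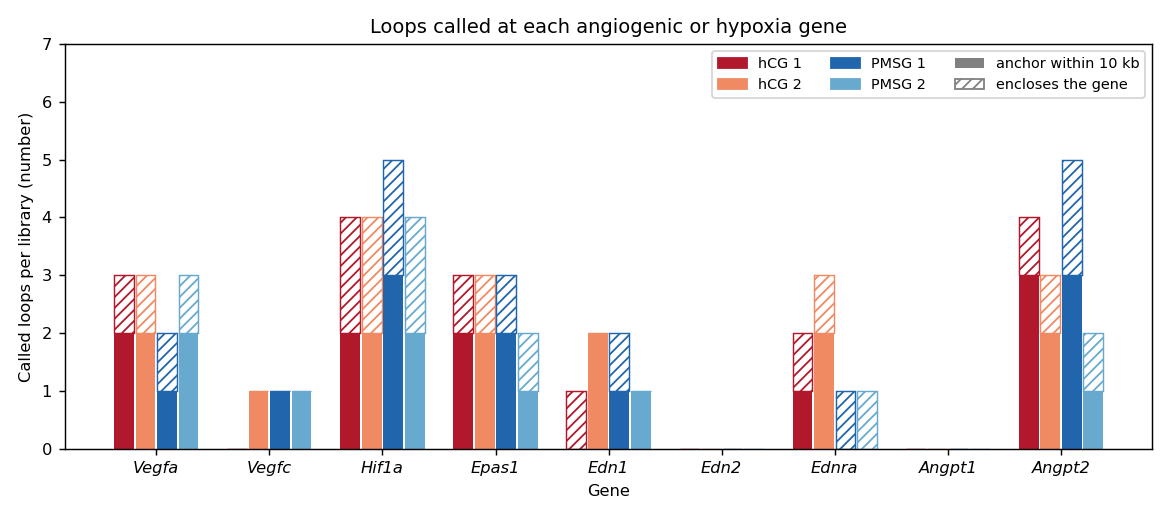
Called loops per library (vertical axis, number) at each of the 9 genes, with filled bars for loops with an anchor within 10 kb and hatched bars for loops that enclose the gene. Hif1a has 4 or 5 loops in every library, Edn2 and Angpt1 have none, and at Ednra filled bars stand in the hCG libraries only.

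Most of what was called at these genes was called on both sides of hCG. Of the 24 distinct loops, 11 were in all 4 libraries, at Vegfa, Hif1a, Epas1, Ednra and Angpt2, and 6 were in both groups but not in every library. One loop, at Epas1, was in both hCG libraries and neither PMSG library, and 0 showed the opposite pattern. Throughout, a loop only in 1 group means such a loop, in both libraries of that group and neither of the other. Among all 12920 distinct loops, 29.9% were in all 4 libraries, 5.05% only in both hCG libraries and 3.80% only in both PMSG libraries. By gene, 1 of the 9 had a loop only in hCG, where 6.66% of 21627 protein-coding genes had one by the same rule, and 0 of 9 had a loop only in PMSG, where 5.40% had one. A count of 1 in 9 is too small to be set against these shares. A distinct loop called in all 4 libraries, which had to meet the rule in at least 1 of them, was found at 5 of 9 members and at 36.5% of all genes. The remaining 6 distinct loops were called in 1 library each, 4 of them in an hCG library and 2 in a PMSG library. Among all distinct loops, 40.0% were in 1 library, and those outside the shares given here were in both groups but not in every library. Where a list lacks a loop, the caller's thresholds were not met, and the contacts at that place were not analysed here.

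**Figure D2:**
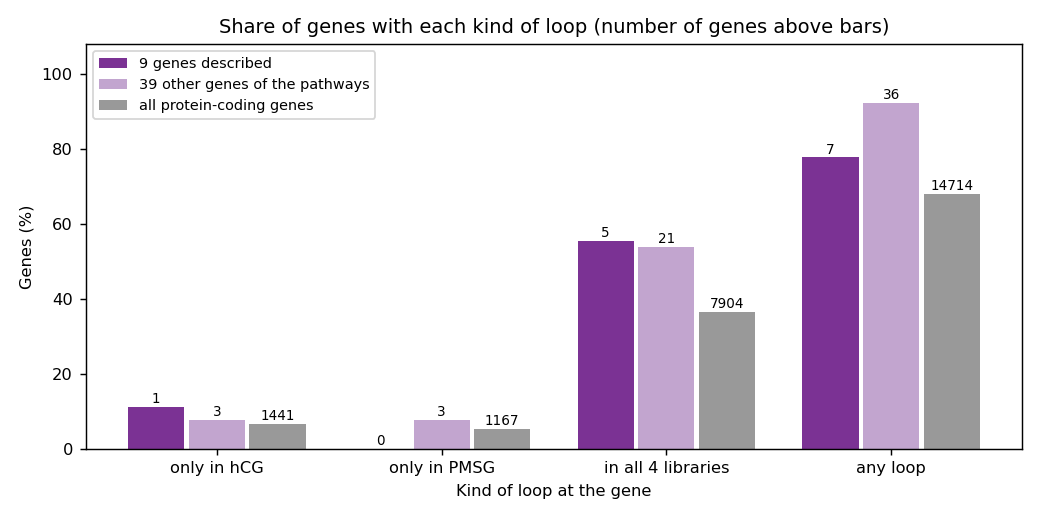
Share of genes (vertical axis, percent) with a distinct loop called only in both hCG libraries, only in both PMSG libraries, in all 4 libraries, or in any library, that met the rule in at least 1 library, for the 9 genes described, 39 other genes of the same pathways and all protein-coding genes, with the number of genes above each bar. The bars for loops called in 1 group only are low in each set, at 0 to 3 genes of the 2 short lists.

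Vegfa (chr17:46016993-46032377, minus strand) was tied in every library to 1 distant site. A 5 kb anchor, chr17:46030001-46035000, held its start site in all 4 lists and was joined to a site 295 kb away in hCG 1, hCG 2 and PMSG 1 and 300 kb away in PMSG 2. The far anchor lay at chr17:45735001-45740000 in the first 3 libraries, beside an end of 1600014C23Rik, a gene with only a clone name. The pixel held 21 contacts in hCG 1 and 27 in hCG 2, against 30 in PMSG 1 and 13 in PMSG 2, where the surrounding donut of pixels predicted 1.91 and 2.35, against 4.19 and 1.41. Observed over expected contacts, the enrichment, were thus 11.0 and 11.5 in hCG, against 7.16 and 9.22 in PMSG.

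Both hCG ratios at the Vegfa start exceeded both PMSG ratios, but not beyond counting error. The 95% Poisson intervals were 6.80 to 16.8 and 7.56 to 16.7 in the hCG libraries, against 4.83 to 10.2 and 4.91 to 15.8 in the PMSG libraries, and they cover counting error only. The group means were 11.2 ± 0.355 in hCG and 8.19 ± 1.46 in PMSG (SD, n = 2 each), a ratio of 1.37. Such an order is frequent here: of 1366 loops called in all 4 libraries in a common bin size, 27.5% had each hCG ratio above each PMSG ratio and 7.10% the reverse. With edgeR's quasi-likelihood test over those 1366 loops the log2 strength difference, hCG over PMSG, was 0.55 with a standard error of 0.30 (95% interval -0.04 to 1.14) and an adjusted p of 0.737. The median of all 1366 loops was itself 0.15, so the Vegfa loop lay 0.40 above it.

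The other Vegfa loops were called with bins that differed between libraries, and their ratios cannot be compared across bin sizes. A loop of 400 to 405 kb enclosed the gene in all 4 libraries, from the same far region to a site within 10 kb of an end of Rsph9, a gene of the cilium's radial spoke, and of Mrps18a, of the mitochondrial ribosome. Its enrichment was 9.16 and 6.46 in 5 kb bins in hCG, against 3.98 and 5.23 in 10 kb bins in PMSG. A shorter loop of 170 to 200 kb from the gene to a site with no gene end was called in 3 libraries. It held 30 and 39 contacts in the hCG libraries, enriched 3.76 and 3.58 times in 10 kb bins, against 87 contacts in PMSG 2, enriched 2.21 times in a 25 kb bin. PMSG 1, the longest list, had no such call.

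Vegfc (chr8:54077532-54186454, plus strand) had 1 distinct loop by the rule, called in 3 of 4 libraries. Its anchor held the start site and reached 400 to 410 kb downstream to a site with no gene end nearby. The enrichment was 3.35 in hCG 2 (49 contacts in a 25 kb bin), against 6.86 in PMSG 1 (23 contacts in a 10 kb bin) and 2.91 in PMSG 2 (41 contacts in a 25 kb bin). hCG 1 had no call, so both groups hold the loop and neither is set apart by it. The anchor also holds an end of Gm33153, which overlaps Vegfc, and the lists do not separate them. Just outside the span limit, a loop of 620 to 625 kb enclosed Vegfc in all 4 libraries.

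**Figure D3:**
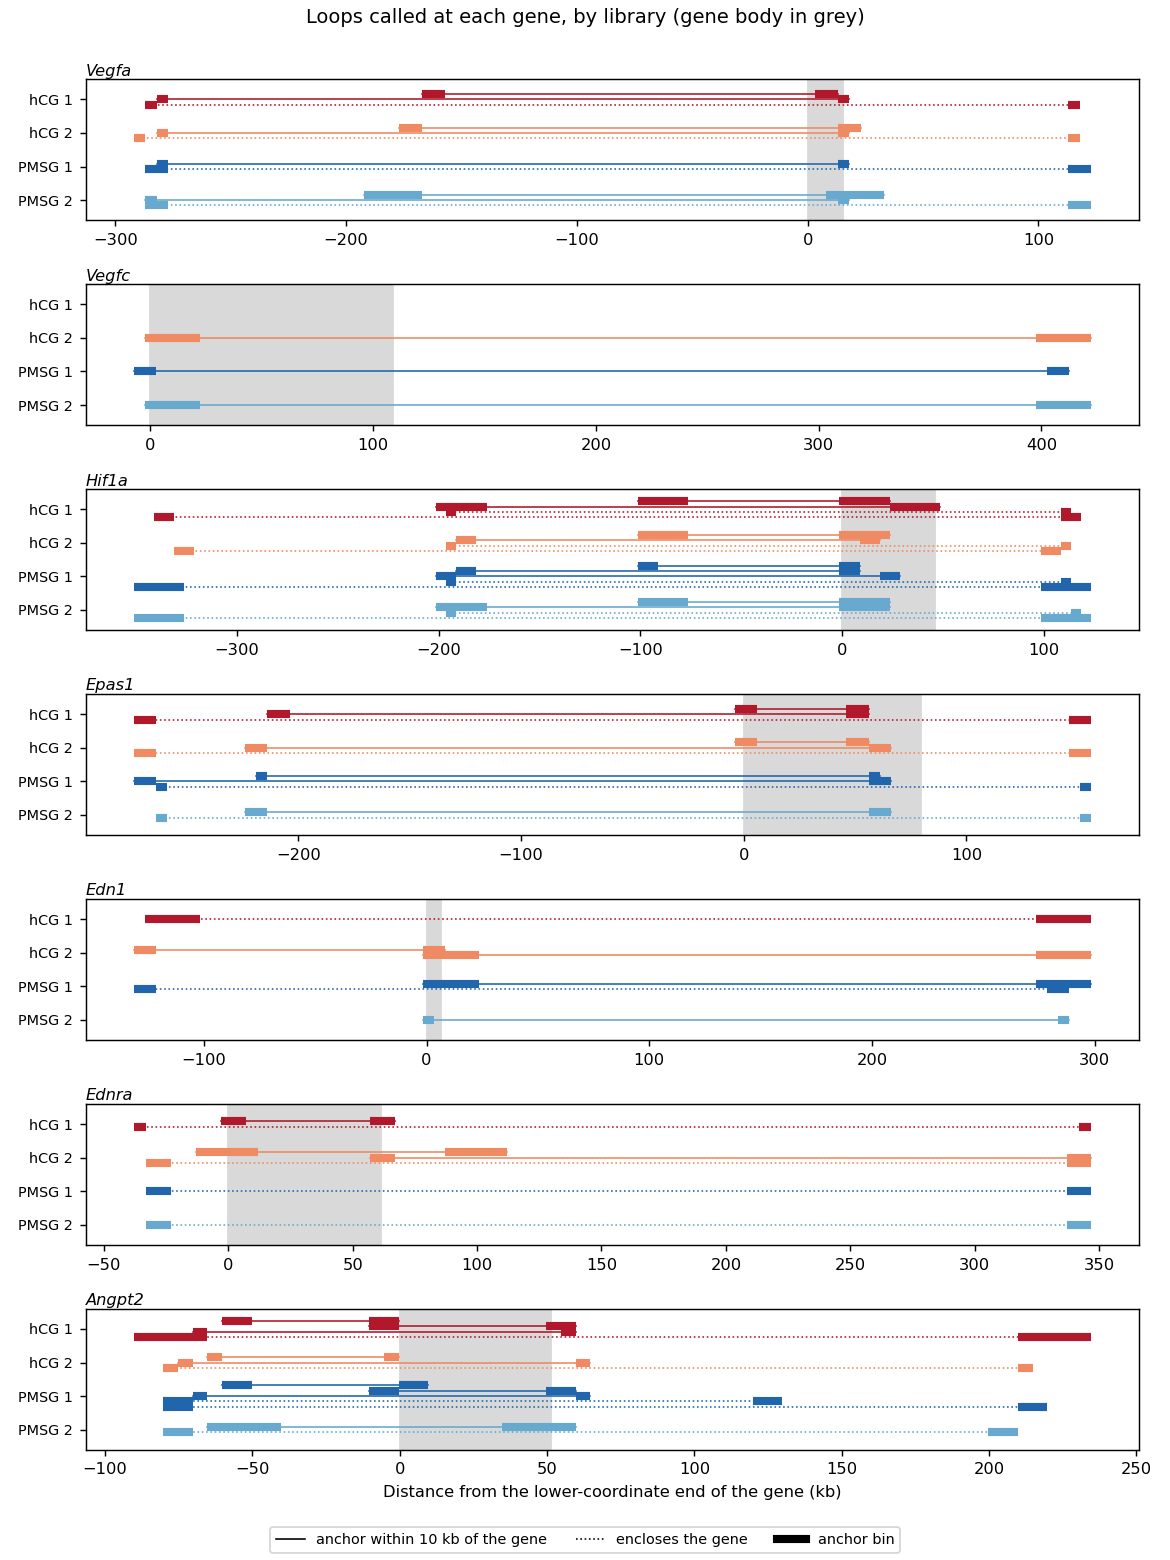
Called loops at the 7 genes that had any, by library, against the distance in kb from the gene's lower-coordinate end (horizontal axis), with the gene body in grey, anchor bins as thick bars, solid lines for loops anchored within 10 kb and dotted lines for enclosing loops. The Vegfa loop of 295 to 300 kb recurs in all 4 libraries, and the 50 kb loop inside Epas1 stands in the 2 hCG libraries only.

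Hif1a (chr12:73901324-73947554, plus strand) had the most loops over the 4 lists (17 of 69), at 4 and 4 in the hCG libraries and 5 and 4 in the PMSG libraries. All 4 of its distinct loops were called in every library, and none was called in 1 group only. Anchored loops ran upstream, over 100 kb to a site at chr12:73800001-73825000 and over 190 to 225 kb into the body of Prkch, which codes protein kinase C eta. Anchors of the 100 kb loop held the Hif1a start site in every library.

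The 100 kb Hif1a loop was called in 25 kb bins in 3 libraries. It held 182 and 185 contacts in hCG 1 and hCG 2 and 139 in PMSG 2, with ratios of 2.54 and 2.33 in hCG and 1.94 in PMSG 2. PMSG 1 called it in a 10 kb bin at 47 contacts and a ratio of 2.39. Among the loops of its own library and bin size with a span within 25%, the ratio stood at percentile 89.3 in hCG 1 and 79.3 in hCG 2, against 8.86 in PMSG 2. In the 3 libraries with 25 kb bins the hCG ratios were thus the higher ones. Without PMSG 1, edgeR's quasi-likelihood test gave a log2 difference of 0.32 with a standard error of 0.14 and an adjusted p of 0.999, with PMSG 2 assumed to vary like the hCG libraries. The loop into Prkch had ratios of 3.15 (25 kb) and 3.22 (10 kb) in hCG, against 3.72 and 2.90 at 2 neighbouring 10 kb pixels of PMSG 1 and 3.77 (25 kb) in PMSG 2. Within 10 kb bins the hCG 2 ratio of the Prkch loop lay between those of PMSG 1, and within 25 kb bins hCG 1 lay below PMSG 2.

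Around Hif1a, the enclosing loop of 305 to 310 kb between Prkch and a site past the gene's far end was called in 5 kb bins in all 4 libraries. It held 20 and 21 contacts in hCG, against 28 and 15 in PMSG, and the ratios were 9.65 and 7.71 in hCG, against 8.95 and 7.30 in PMSG. The ratios of the 2 groups interleave. Their means were 8.68 ± 1.37 in hCG and 8.12 ± 1.17 in PMSG (SD, n = 2 each), and the log2 difference by edgeR's quasi-likelihood test was 0.04 with a standard error of 0.31 (95% interval -0.57 to 0.66, adjusted p = 0.992). An interval of that width leaves moderate changes either way undetectable at 15 to 28 contacts. The wider enclosing loop of 430 to 450 kb came within 10 kb of an end of Prkch and of Syt16, a synaptotagmin gene, in 3 libraries. It had ratios of 5.52 and 4.36 in 10 kb bins in hCG, against 3.23 and 3.49 in 25 kb bins in PMSG.

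Epas1 (chr17:86753864-86833410) carried the 1 loop at these genes that was called in both hCG libraries and neither PMSG library. In 10 kb bins of both hCG libraries, chr17:86750001-86760000, which holds the gene's lower-coordinate end, met chr17:86800001-86810000, so the loop of 50 kb lies almost wholly inside the gene. It held 39 contacts in each hCG library, with 13.0 expected in hCG 1 and 16.0 in hCG 2, for ratios of 3.01 (2.14 to 4.11) and 2.45 (1.74 to 3.34). Neither PMSG library had a call there, and how many contacts they held at that pixel was not analysed. The class stayed the same under all 13 other settings run, though many of these could not change it. A changed gene window or span limit, or a library left out, leaves such a loop in its class by construction. Both hCG calls are the same pixel, so matching within 10 kb or by overlapping anchors could not split them. Cuts at q-values under 0.01 and to lists of equal length could only have dropped an hCG call, and did not. Matching within 50 kb could have joined a PMSG call to the loop, and the class held. Loops inside a gene called only in both hCG libraries were found at 0.467% of genes, and only in both PMSG libraries at 0.148%, but this kind of loop was picked out after its values were seen and a gene shorter than the loop cannot hold one.

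The inner anchor bin of that Epas1 loop was an anchor only in the hCG libraries, but the bin next to it was an anchor in both groups. A loop of 260 to 280 kb to a site inside Prkce, which codes protein kinase C epsilon, was called in all 4 libraries. It ended in the same bin in hCG 1, and in the next one, up to position 86820000, in hCG 2 and both PMSG libraries. That loop held 27 and 40 contacts in hCG, against 20 and 30 in PMSG. Its ratios were 2.82 and 3.49 in hCG, against 3.60 (in a 5 kb bin) and 3.41 in PMSG, and in 10 kb bins the PMSG 2 ratio lay between those of hCG. A loop of 415 to 420 kb from Prkce to Tmem247 enclosed the gene in every library, with ratios of 4.72 and 4.10 in 10 kb bins in hCG, against 6.16 and 8.02 in 5 kb bins in PMSG. PMSG 1 alone also had a loop of 330 kb to Prkce, with 46 contacts and a ratio of 2.77.

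Edn1 (chr13:42301476-42307990, plus strand) had no loop that was in all 4 libraries and none that was in both libraries of 1 group only. Its anchored loop of 275 to 285 kb, to a site with no gene end, was called in 3 libraries. The ratio was 2.66 in hCG 2 (89 contacts, 25 kb bin), against 3.24 in PMSG 1 (122 contacts, 25 kb bin) and 8.88 in PMSG 2 (12 contacts, 5 kb bin). In hCG 1, which lacks that call, a loop of 400 kb between Hivep1, a zinc finger gene upstream, and the same far region enclosed Edn1 with a ratio of 2.94, and PMSG 1 had it too, at 410 kb and 4.88. hCG 2 alone joined Edn1 to Hivep1 directly, over 130 kb, with 28 contacts and a ratio of 4.02. The 3 sites, Hivep1, Edn1 and the far region, were thus each joined to another of them in some library, without a division by group.

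Edn2 (chr4:120161206-120167360, plus strand) had no loop in any library. The nearest anchors lay 57.6 and 62.6 kb away in the hCG libraries, against 52.6 and 57.6 kb in the PMSG libraries. With no call, nothing about its contacts can be compared.

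Ednra (chr8:77663029-77724452, minus strand) was the 1 member with anchored loops in both hCG libraries and with 0 in each PMSG library, but the loops themselves differed between the hCG libraries. In hCG 1, a loop of 60 kb joined the 10 kb bins that hold the gene's 2 ends, with 39 contacts, 13.6 expected and a ratio of 2.86. In hCG 2, a loop of 100 kb ran from the lower-coordinate end to a site upstream of the start (126 contacts in a 25 kb bin, ratio 1.95), and another of 280 kb ran from the start to chr8:78000001-78010000 (28 contacts, ratio 3.13). The bin chr8:77720001-77730000, which holds the start site, was therefore an anchor in both libraries of hCG and in no PMSG library. These loops of 1 library each are given because of this pattern, which was seen in the values.

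Anchored loops in both hCG libraries and neither PMSG library were found at 2.12% of all genes and the reverse at 1.47%, and Ednra is 1 of 9 members. Ednra was also the 1 member with more loops in each hCG library (2 and 3) than in each PMSG library (1 and 1), beside 5.19% of all genes, and 0 members had the reverse, beside 3.99%. Counting gene ends that lie inside an anchor, a measure also chosen after its values were seen, Epas1 and Ednra had such an end in both hCG libraries only, 2 of 9 members beside 2.67% of all genes. No member had one in both PMSG libraries only, beside 1.54%. When the window at the gene was widened to 25 kb, the Ednra pattern was lost, since an anchor 23.0 kb from the gene then counts in hCG 2 and both PMSG libraries. That anchor belongs to a loop of 370 to 380 kb that enclosed Ednra in all 4 libraries, with ratios of 8.38 (5 kb bin) and 5.35 in hCG, against 3.74 and 5.67 in PMSG. Its far end is the same chr8:78000001-78010000 that hCG 2 also joined to the start site.

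Angpt1 (chr15:42424667-42676977) had no loop by the rule in any library. The nearest anchors were 348 kb away in both hCG libraries, against 200 and 23.0 kb in the PMSG libraries. Just outside the rule, a loop of 700 kb enclosed the gene in both PMSG libraries, with 54 and 52 contacts and ratios of 4.03 and 3.05 in 25 kb bins, and PMSG 2 had another of 500 kb, with 59 contacts and a ratio of 2.56. Neither hCG library had a loop under 1000 kb around the gene. With the limit raised to 1000 kb, Angpt1 becomes the 1 member with a loop in both PMSG libraries and neither hCG library. The share of all genes with such a loop was 5.40% under the limit of 500 kb and was not computed for 1000 kb. Just inside the limits lay the enclosing Hif1a loop, at up to 450 kb, and an Angpt2 anchor 8.44 kb from the gene.

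Angpt2 (chr8:18690263-18741562) lies inside the span of Mcph1, which codes microcephalin, so that the loops here are also loops of Mcph1. It had 4 and 3 loops in the hCG libraries, against 5 and 2 in the PMSG libraries. An anchored loop of 100 to 135 kb across the gene into Mcph1 was called in all 4 libraries. Its ratios were 5.23 and 6.43 in hCG, against 3.66 in PMSG 1, in 5 kb bins of 14, 24 and 20 contacts, and PMSG 2 had it in a 25 kb bin with 116 contacts and a ratio of 2.17. When PMSG 2 was left out, so that these 5 kb calls could be fitted, the log2 difference was 0.69 with an adjusted p of 0.489 by edgeR's quasi-likelihood test, with PMSG 1 assumed to vary like the hCG libraries.

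The shorter Angpt2 loops were missing from PMSG 2, the shortest list. A loop of 50 to 60 kb from the gene's lower-coordinate end had ratios of 2.84 (10 kb bin) and 4.03 (5 kb bin) in hCG, against 2.82 (10 kb bin) in PMSG 1. A loop of 60 kb between both gene ends was in hCG 1 and PMSG 1 only, with 33 and 57 contacts and ratios of 2.74 and 2.27. The enclosing loop of 280 to 300 kb was in all 4 libraries, with ratios of 3.27 (25 kb bin) and 6.98 (5 kb bin) in hCG, against 3.74 and 4.47 (10 kb bins) in PMSG. PMSG 1 alone had an enclosing loop of 200 kb, with 43 contacts.

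**Figure D4:**
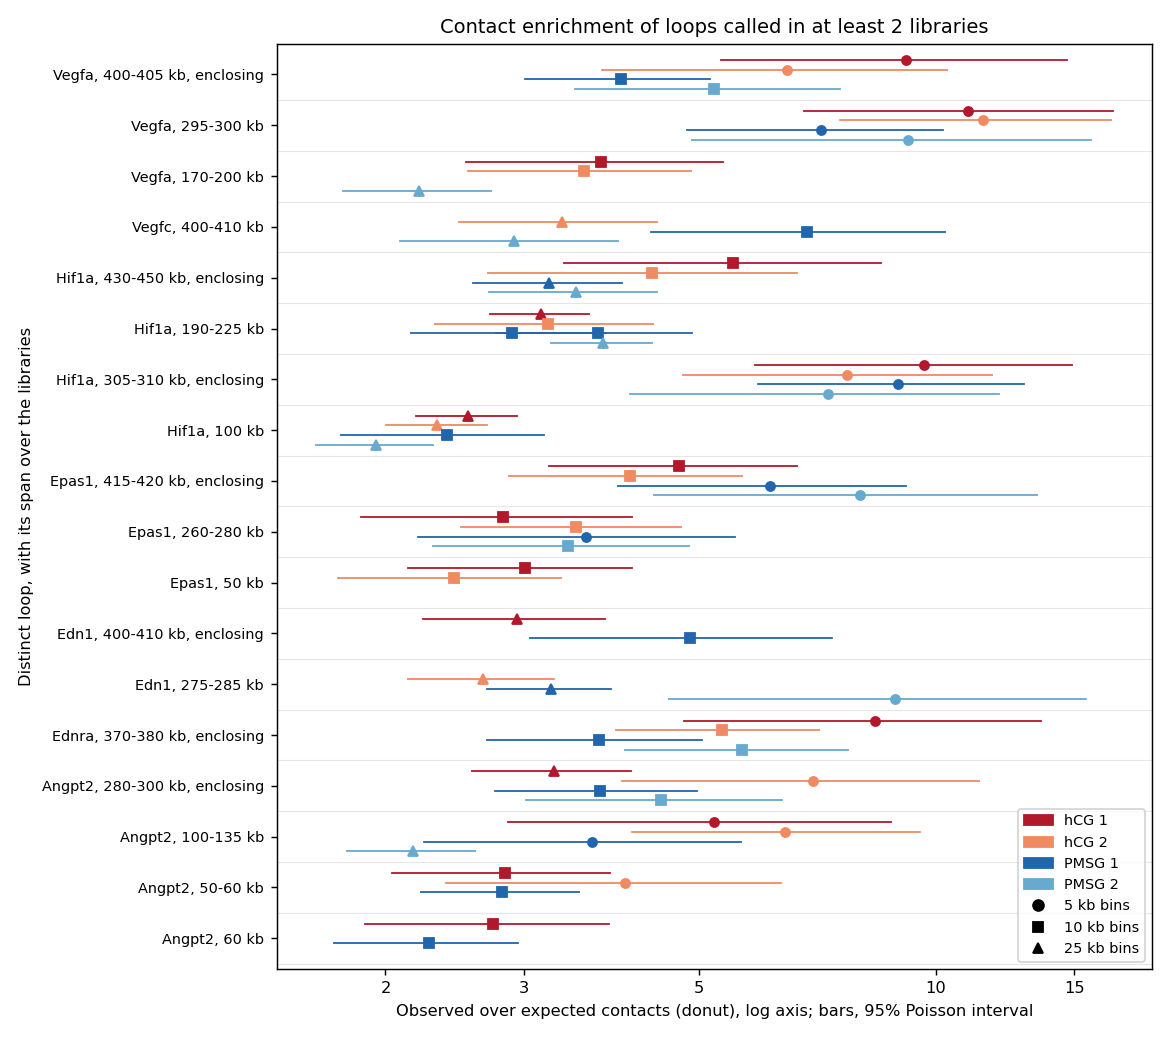
Observed over expected contacts (horizontal axis, log scale) of the distinct loops called in at least 2 libraries, with 95% Poisson intervals as bars, colours for libraries and symbols for the bin size. At the Vegfa loop of 295 to 300 kb both hCG points (11.0 and 11.5) stand above both PMSG points (7.16 and 9.22) with overlapping intervals, and symbols differ within most other loops.

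No strength call was made at these genes, but few of their loops were tested. With all 4 libraries, only 2 of their 24 distinct loops, at Vegfa and Hif1a, entered a fit. Both fits take only loops called in every library, so the Epas1 loop called only in hCG could not enter them. Of the 435 pixels called at 1 identical position in all 4 libraries, 0 lie at a member, and edgeR's quasi-likelihood test called 0 of the 435 at an adjusted p under 0.05 (29 at an unadjusted p under 0.05, and 1 with DESeq2, which also called 0). The values given above for Vegfa and Hif1a therefore come from the wider fit of 1366 loops, each library at its own pixel, where 0 were called (93 at an unadjusted p under 0.05, and 5 with DESeq2, which also called 0). Member loops spanned 50 to 450 kb in hCG, against 60 to 450 kb in PMSG, and only their medians per library stood apart. The median span of the member loops was 260 and 280 kb in hCG, against 290 and 292.5 kb in PMSG, a difference of -21.25 kb between means of 270.0 ± 14.1 and 291 ± 1.77 kb (SD, n = 2 each) that reaches the smallest exact p, 0.333. The same order held over whole lists, with medians of 150 and 160 kb in hCG, against 175 and 195 kb in PMSG, so it is not particular to these genes.

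Other genes of the same pathways, 39 in all, divided evenly between loops called in 1 group and in the other. Of these genes, 36 (92.3%) had a loop, beside 68.0% of all genes. A distinct loop called in all 4 libraries, which met the rule in at least 1, was at 21 (53.8%), beside 36.5% of all genes. Tek, the angiopoietin receptor, and the glycolysis genes Ldha and Aldoa had no loop. Loops called only in hCG were at 3 genes and loops called only in PMSG at 3 (7.69% each, beside 6.66% and 5.40%). Those only in hCG lay at Pfkfb3, a regulator of glycolysis, Cited2, which limits hypoxia-inducible factor activity, and Egln3, an oxygen sensor that marks these factors for decay. The ratios in the 2 hCG libraries were 2.82 and 2.86 at Pfkfb3, 3.44 and 2.40 at Cited2 and 2.06 and 1.96 at Egln3.

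Those only in PMSG lay at Vegfd, a lymphatic growth factor, Flt4, its receptor, and again Egln3. At Vegfd the 2 PMSG ratios were 4.41 and 5.82 for an enclosing loop of 270 kb, and at Flt4 they were 2.25 and 3.17 for a loop of 50 kb at the gene. At Egln3 a loop of 390 to 400 kb in PMSG (6.19 in a 5 kb bin and 2.25 in a 25 kb bin) and one of 325 kb in hCG end in the same far region, so that the gene counts in both directions.

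Granulosa markers could be checked only for loops, not for RNA. All 8 of them (such as Fshr, the receptor for follicle stimulating hormone, and Foxl2, a factor of ovarian identity) had a loop. By the same rule 68.0% of all genes had a loop, a share that belongs beside each marker list here. Loops at the granulosa list stood at 2.48 and 2.52 per 1000 in hCG, against 2.77 and 2.60 in PMSG. Of 7 endothelial markers 5 had a loop, at 0.652 and 0.882 per 1000 in hCG, against 0.602 and 0.612 in PMSG, and 2 of them, Emcn and Pecam1, had a loop only in hCG and 0 only in PMSG, beside 6.66% and 5.40% of all genes. Tek and Egfl7 had no loop. Loops only in hCG and only in PMSG were at 2 and 2 of the granulosa markers, 2 and 3 of the theca and stroma markers, 0 and 1 of the leukocyte markers and 0 and 0 of the oocyte markers. The 4 leukocyte markers, of which Adgre1 had no loop, ranged from 0.252 to 0.261 per 1000 in hCG, against 0.120 to 0.306 in PMSG. Theca and stroma markers, 6 of 6 with a loop, stood at 2.22 and 2.39, against 2.17 and 2.14, and the 4 oocyte markers, of which Gdf9 had no loop, at 0.391 and 0.252, against 0.361 and 0.459. These counts do not measure how many cells of a type a library held, and their part in the results was not tested.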

How the data were processed

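The Dovetail Micro-C kit was used for 2 hCG and 2 PMSG libraries of granulosa cells, with 2 to 3 technical replicates each, per the labels' protocols, which the lists do not separate. BWA, Juicer and mm10 are named, per the submitters' processing notes, and juicer_tools 1.22.01 wrote the lists, per the file headers. Details such as the BWA version and the loop caller's settings were not given in the sources used here. Per the file headers, each loop has an observed contact count, not normalized, an expected contact signal from local neighbourhoods (donut and bottom left used here), and the authors' q-values, at most 0.0994. The deposited score, the number of pixels merged into a loop, was not used. The observed counts had medians of 32 and 34 in hCG, against 36 and 32 in PMSG, which makes single ratios imprecise, and contacts may include PCR copies. Contacts at called pixels summed to 311016 and 349717 in hCG, against 393852 and 272470 in PMSG. That total rises with the number of calls and does not measure depth. Calls can depend on depth, which was not tested.

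Genes are RefSeq protein-coding genes of GRCm38.p6. Loops with both anchor midpoints within 20 kb, in connected sets, were 1 distinct loop, and 3.65% of the sets were wider than that. Strength was tested with edgeR 4.0.16 in R 4.3.3 (quasi-likelihood, log donut expectation as offset, Benjamini-Hochberg, threshold 0.05), tested on simulated data, with DESeq2 1.42.0 as an alternative. No member pixel entered the planned fit, so a wider fit, with each library at its own pixel, gives the member values. Its standard errors are never below the counting error. Counts per 1000 were compared by exact permutation over libraries (Python 3.11.15, numpy 2.4.6, pandas 2.3.3, scipy 1.17.1, matplotlib 3.10.9). The labels do not state that replicate numbers pair libraries, so the numbers were not taken to pair them. Over 1366 loops the deviations of libraries sharing a number correlated at -0.00782, which cannot decide pairing where counting error is large. All 9 members were named, with gene ends within 10 kb of the far anchor for loops of at least 2 libraries, and pathway genes with a loop in both libraries of 1 group only. The members and lists were chosen with earlier results of these data known.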

Additional observations from a re-analysis of the deposited data

How the results depend on the processing

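Low contact counts limit these results, since 12 to 189 contacts lie behind each member ratio. The difference in member loops per 1000 (0.0909) was 0.197 over anchored loops alone and changed sign when an anchor had to overlap the gene (-0.0373) and when enclosing loops up to 1000 kb counted (-0.126); the groups stood apart with that span limit and at q-values under 0.01 (0.0436), with the smallest exact permutation p, 0.333; it ran from 0.00279 to 0.179 when a library was left out. Distinct member loops only in hCG numbered 2, not 1, with matching within 50 kb (adding Ednra) and with overlapping anchors, and 2 to 4 with a library left out; genes numbered 2 with matching within 50 kb and 2 to 3 with a library left out. Distinct loops only in PMSG, 0 otherwise, numbered 1 with enclosing loops up to 1000 kb (Angpt1) or overlapping anchors (Epas1) and 0 to 2 with a library left out, with the same numbers of genes; the largest values were without hCG 2 and without PMSG 2, and for loops only in hCG without hCG 1. Leaving out a library lets 1 list stand for its group, so these counts can grow by construction. The span difference was -78.75 kb over anchored loops and -5 kb at q-values under 0.01. Strength gave 0 calls at members under all 11 alternatives run, but most of these held no member pixel, so 0 was fixed there in advance. The fit with the replicate number as a block is 1 of those (0 of 435 pixels called). The others held 1 or 2 member loops. In the wider fit, 2 member loops were tested under each setting with all 4 libraries, and 0 were called. With the block, the wider fit gave log2 0.49 at Vegfa and 0.10 at Hif1a (adjusted p = 0.993 for each, edgeR's quasi-likelihood test). The Vegfa value ran from 0.29 to 0.73 (adjusted p 0.367 to 0.999, edgeR and DESeq2). The Hif1a value changed sign with the bottom left expectation (-0.040), without hCG replicate 1 (-0.10) and without PMSG replicate 2 (-0.066), and ran from -0.10 to 0.23 with a library left out. Over the 1168 to 1366 loops of the wider fit with all 4 libraries, 0 were called, except 3 with the bottom left expectation, and none at a member. The median of all loops was 0.15 with the donut expectation and -0.00 with TMM and no expectation. The cause of these changes was not tested.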
